A study of Mus musculus with 6 samples.

Results

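The proteasome genes of mouse Ba/F3 cells were followed at the mRNA level in clones that expressed RPL10 WT or RPL10 R98S. Members were chosen by symbol: every row whose name starts with Psma, Psmb, Psmc, Psmd or Psme and a digit, together with Psmf1, Psmg1 to Psmg4, Pomp and Adrm1, leaving out 3 pseudogene rows. This gave 52 of the 41255 listed genes. 1 of the 52, Psmc3ip, shares only the first letters of its name with the proteasome and encodes a recombination factor, so 51 genes were counted as members. Of these, 49 reached a mean normalised read count of 10 over the 6 clones and were tested. The thymus-specific subunit Psmb11, at 5.14 ± 0.853 in WT and 8.09 ± 2.72 in R98S clones (mean ± SD, n = 3 each), and Psme2b, with at most 1 read in any clone, were below that limit and were not tested.

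The cells were Ba/F3, an interleukin-3 dependent mouse lymphoid line, transduced with retroviral vectors carrying human RPL10 cDNA in the WT or the R98S form, while an shRNA against the endogenous mouse Rpl10 was present in all clones, WT clones included. Each of the 3 WT cultures (clones 28, 29 and 36) and the 3 R98S cultures (clones 11, 13 and 35) was grown from a single cell and gave 1 library of polyadenylated RNA, after 5 min in 100 μg/ml cycloheximide, a drug that stops elongating ribosomes. The comparison asks how the leukaemia-associated R98S mutation of this ribosomal protein alters mRNA levels. Because each replicate is a clone, p-values set the difference between the groups against the spread between clones. A trait of the founder cell of a clone cannot be told apart from an effect of its RPL10 form in that clone.

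The 26S proteasome degrades proteins that carry ubiquitin chains. Its 20S core is a stack of outer alpha rings and inner beta rings, and 3 of the beta subunits (encoded by Psmb5, Psmb6 and Psmb7) cut the substrate. Cells of the immune system can replace these by Psmb8, Psmb9 and Psmb10, which gives the immunoproteasome and alters the peptides offered on MHC class I molecules. The core is capped by the 19S particle, whose base unfolds substrates with a ring of ATPases and whose lid removes the ubiquitin, or by activators such as PA28, built from Psme1 and Psme2. Dedicated chaperones assemble the core and the base.

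The 6 libraries held from 21786776 to 24204991 reads on genes. Normalised counts listed for Rpl10 were 2637 ± 655 in WT and 2509 ± 580 in R98S clones (SD, n = 3 each, adjusted p = 0.871), and how many of these reads came from the human cDNA was not tested. The paper selected its cultures for strong knock-down of endogenous Rpl10, measured by qPCR. As to cell type, the receptor chains for interleukin-3 were present (Csf2rb at 51880 ± 7390 in WT and 74700 ± 7980 in R98S clones, adjusted p = 0.0509), and Ptprc (CD45), a marker of haematopoietic cells, was at 11220 ± 2640 and 4471 ± 1150 (adjusted p = 0.00894). Of 7 B lineage markers, Cd79a and Cd79b were clearly present, whereas Pax5, Vpreb1 and Igll1 had at most 3 reads in any clone. The summed level of the 7 lay between 1287 and 1400 in WT and between 1635 and 1955 in R98S clones, and that of 4 T lineage markers, mostly Cd3d, between 10.8 and 22.0 and between 45.9 and 91.9. The part of either in the results was not tested. The summed levels of 3 epithelial and 3 fibroblast markers did not exceed 5.37 and 20.4 in any clone.

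More proteasome mRNAs were called higher than lower in R98S clones, and the activator, immunoproteasome and ATPase classes had the highest median differences. In the limma fit over all 11550 tested genes, 14 of the 49 tested members were called higher and 2 lower at an adjusted p under 0.1. Among all tested genes 23.9% were called, 10.7% higher and 13.1% lower, against 28.6% and 4.08% of the members. The R98S and WT clones did not overlap for 26 members (22 higher and 4 lower in R98S), or 53.1%, while 37.3% of all tested genes showed no overlap. The median log2 difference of the 49 members was 0.22, that of all tested genes -0.01, and 33 members lay above 0. The genes called higher rose between 1.28 and 1.91 times, from Psme3 at the low end to Psme2 at the high end. In a bulk culture, a shift in the share of cells that express a gene and a shift in RNA per cell cannot be told apart.

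**Figure D1:**
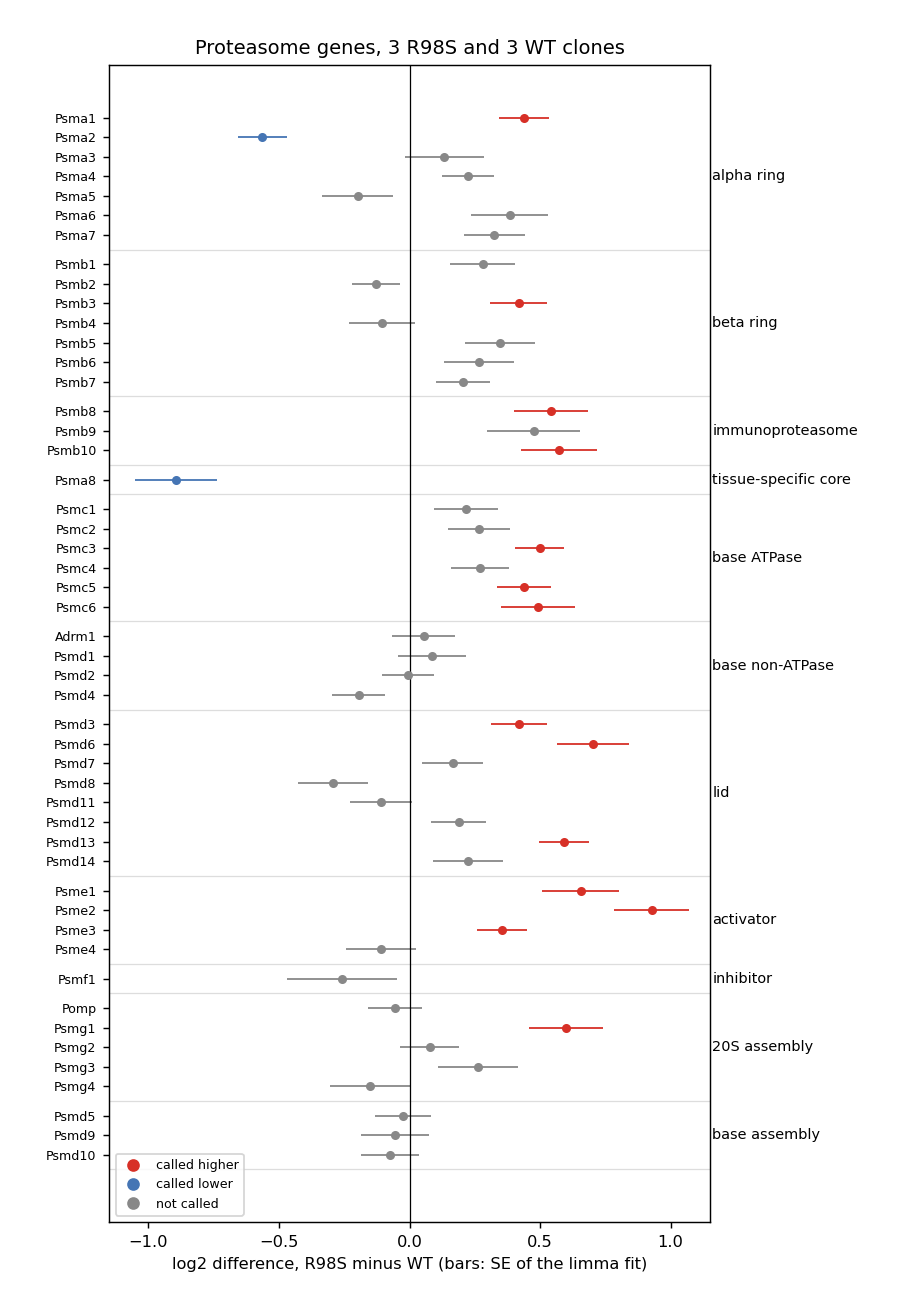
Fitted log2 difference of each of the 49 tested proteasome genes between the 3 R98S and the 3 WT clones (x axis, on the log2(normalised count + 1) scale), grouped by role. Points are limma estimates and bars their SE; red points were called higher (14), blue points lower (2) and grey points were not called (33) at an adjusted p under 0.1.

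The classes differed in where their members lay. Calls per class below are counts of few genes, beside 10.7% called higher and 13.1% lower among all tested genes. Per clone, each gene's log2 level was set against its WT mean and the median was taken over the genes of a class. Over the 49 members that median was 0.25, 0.20 and 0.16 in R98S clones 11, 13 and 35, and between -0.05 and 0.04 in the WT clones, so that all 3 R98S clones stood above all 3 WT clones. The 6 ATPases were at 0.33, 0.32 and 0.41 in R98S clones 11, 13 and 35, the 3 immunoproteasome subunits at 0.58, 0.66 and 0.43, and the 4 tested activators at 0.45, 0.71 and 0.36. The non-ATPase subunits of the base were at -0.05, -0.01 and -0.05, inside the range of the WT clones (-0.10 to 0.07).

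**Figure D2:**
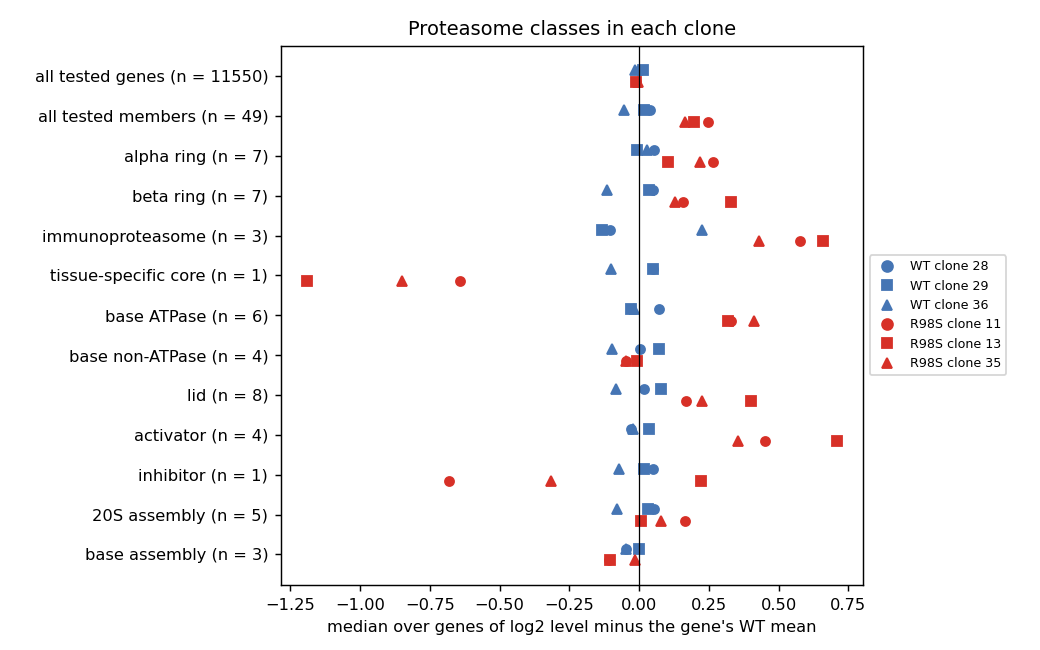
Median over the genes of each class of the log2 level minus the gene's mean over the WT clones (x axis), for each clone (blue WT, red R98S; n is the number of tested genes). In the R98S clones the activators lie between 0.36 and 0.71 and the base ATPases between 0.32 and 0.41, while the medians of all 11550 tested genes lie between -0.02 and 0.01 in all 6 clones.

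The outer alpha rings, which gate the entry to the core, were mixed: of 7 subunits 1 was called higher, 1 lower and 5 were not called. The called share of 28.6% lay near the 23.9% of all tested genes. Psma1 had normalised counts of 4796, 4910 and 4997 in WT clones 28, 29 and 36, against 6938, 6127 and 6882 in R98S clones 11, 13 and 35. The groups did not overlap, and the log2 difference was 0.44 (SE 0.10, adjusted p = 0.0234). Without WT clone 28 the adjusted p of Psma1 was 0.106. Psma2 (chromosome 13, 14613240 to 14674236, plus strand, GRCm38) went the other way, from 4390, 4351 and 4358 in the WT clones to 3045, 2762 and 3070 in the R98S clones. It fell by 0.56 on the log2 scale (SE 0.09, adjusted p = 0.00923), and the highest WT clone lay 0.896% above the lowest. Since every 20S core holds the products of both genes in equal number, the opposite shifts are given side by side, with no further test. Psma6 (0.38, adjusted p = 0.117), Psma7 (0.32, 0.101), Psma4 (0.22, 0.165), Psma3 (0.13, 0.579) and Psma5 (-0.20, 0.356) did not pass. The groups did not overlap for Psma4, Psma6 and Psma7, as was the case for 37.3% of all tested genes. Without R98S clone 13 the adjusted p of Psma4 was 0.0741, and without R98S clone 35 that of Psma7 was 0.0837.

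Psma8, a paralogue of Psma7 best known from the testis, where it takes the place of Psma7 in the core, had the lowest log2 difference of all members. Its normalised counts were 1220, 1221 and 1100 in WT clones 28, 29 and 36, against 754, 516 and 653 in R98S clones 11, 13 and 35. The groups did not overlap, and Psma8 fell by 0.89 on the log2 scale (SE 0.16, adjusted p = 0.0111). Per kb of principal transcript, Psma8 stood at 697 ± 41.1 in WT and 379 ± 70.6 in R98S clones, and Psma7 at 5043 ± 175 and 6351 ± 858, so that Psma8 was the minor form in every clone. No stretch of 50 bases of the Psma8 transcript recurs in the annotated transcripts of another gene.

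**Figure D3:**
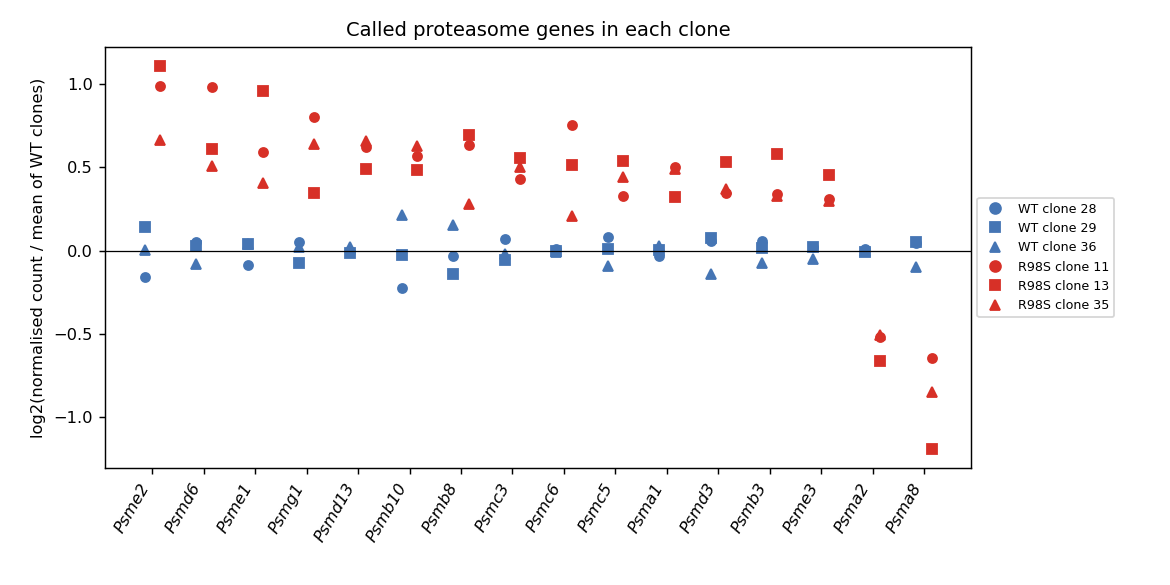
The 16 called members in each clone, as log2 of the normalised count over the mean of the WT clones (y axis; circles, squares and triangles are the clones named in the key, blue WT and red R98S). For each of these genes all 3 R98S points lie on one side of all 3 WT points; the R98S clones are most apart from each other for Psme1, Psmc6, Psma8 and Psmd6.

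In the beta rings, which hold the active sites, 1 of 7 subunits was called, Psmb3, or 14.3% beside 23.9% of all tested genes. The median log2 difference was 0.27. Psmb3, a structural subunit, had 2654, 2575 and 2428 normalised counts in WT clones 28, 29 and 36, against 3233, 3825 and 3201 in R98S clones 11, 13 and 35. The groups did not overlap (log2 difference 0.42, SE 0.11, adjusted p = 0.0389). The adjusted p was 0.113 without WT clone 28 and 0.110 without WT clone 29. Psmb3 shares 55.8% of its 50-base stretches with 7 other annotated genes, so reads there may have been discarded by the authors' mapping filter. The catalytic subunits did not pass. Psmb5, the chymotrypsin-like subunit, had 1995, 1822 and 1652 in WT and 2533, 2490 and 1958 in R98S clones 11, 13 and 35 (0.35, SE 0.14, adjusted p = 0.122). R98S clone 35 lay below WT clone 28, and without R98S clone 35 the adjusted p was 0.0618. Psmb6, the caspase-like subunit (0.27, SE 0.13, adjusted p = 0.215), and Psmb7, the trypsin-like subunit (0.21, SE 0.10, adjusted p = 0.209), were higher in every R98S clone than in every WT clone without passing the test. Psmb7 shares 405 exon bases on the opposite strand with Nek6, which was at 5909 ± 1042 in WT and 2509 ± 856 in R98S clones (-1.28, adjusted p = 0.0136), and what this adds to the count of Psmb7, and to its ratio with Psmb10, was not tested. Psmb1 (0.28, adjusted p = 0.168), Psmb2 (-0.13, 0.371) and Psmb4 (-0.11, 0.607) complete the ring. Psmb1 was higher in every R98S clone than in every WT clone. Psmb2 was lower in every R98S clone (2422, 2445 and 2537) than in every WT clone (2685, 2744 and 2660). Among all tested genes 37.3% showed no overlap between the groups.

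The immunoproteasome subunits replace those 3 catalytic subunits, and 2 of the 3 were called higher. Psmb8 (chromosome 17, 34197721 to 34201454, plus strand, GRCm38), the counterpart of Psmb5, had 1745, 1618 and 1986 normalised counts in WT clones 28, 29 and 36, against 2771, 2887 and 2162 in R98S clones 11, 13 and 35. It rose by a log2 difference of 0.54 (SE 0.14, adjusted p = 0.0393), with no overlap between the groups. Psmb10 (chromosome 8, 105935735 to 105938444, minus strand), the counterpart of Psmb7, had 477, 548 and 648 in WT and 827, 781 and 864 in R98S clones. It rose by 0.57 (SE 0.14, adjusted p = 0.0350), again without overlap. Both calls were lost with single clones left out: omitting WT clone 28, WT clone 29 or R98S clone 11 gave adjusted p-values of 0.127, 0.129 and 0.123 for Psmb8 and of 0.140, 0.104 and 0.101 for Psmb10. Psmb9 (chromosome 17, 34181987 to 34187764, minus strand), the counterpart of Psmb6, had 848, 760 and 1174 in WT and 1155, 1438 and 1228 in R98S clones. WT clone 36 lay above R98S clone 11, and the difference of 0.48 (SE 0.18) did not pass (adjusted p = 0.109). Without WT clone 36 the log2 difference of Psmb9 was 0.66 and its adjusted p 0.0312. Psmb9 shares 212 exon bases with Tap1 on the opposite strand. The authors used a stranded library kit, but whether they also counted by strand is not given in the sources used here.

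Per kb of principal transcript the constitutive form was the more abundant of each catalytic pair in every clone. Psmb5 stood at 2028 ± 191 and Psmb8 at 1095 ± 115 in WT clones, and at 2588 ± 357 and 1601 ± 239 in R98S clones. Psmb6 and Psmb9 were at 2281 ± 159 and 686 ± 161 in WT clones and at 2760 ± 442 and 942 ± 109 in R98S clones, and Psmb7 and Psmb10 at 2224 ± 99.8 and 425 ± 65.3, then 2568 ± 198 and 628 ± 31.8. Since 57.1% of the 50-base stretches of Psmb5 and none of those of Psmb8, Psmb9 and Psmb10 recur in other genes, the level of Psmb5 may be understated.

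**Figure D4:**
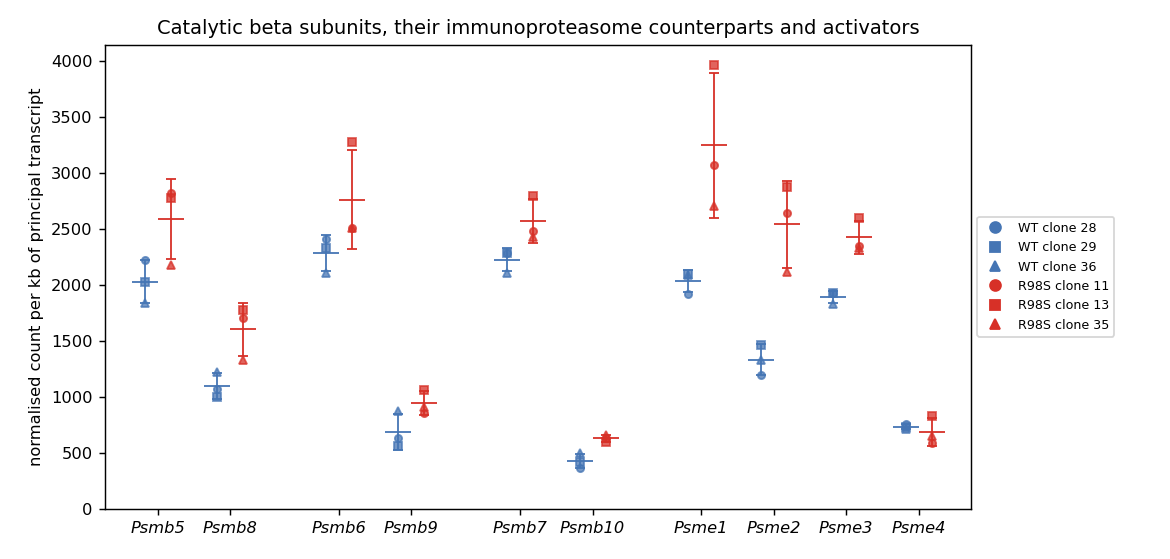
Normalised count per kb of principal transcript (y axis, linear from 0) of the catalytic subunits Psmb5, Psmb6 and Psmb7, each beside its immunoproteasome counterpart, and of the activators Psme1 to Psme4. Symbols are single clones, horizontal bars means and whiskers SD (n = 3); in both groups Psmb8, Psmb9 and Psmb10 lie below their constitutive counterparts.

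A ratio within a library does not depend on its size factor, and 5 such ratios were compared by an exact two-sided permutation test, which with 3 against 3 clones cannot give a p below 0.1. The log2 ratio of normalised counts of Psmb8 to Psmb5 was -0.19, -0.17 and 0.26 in WT clones 28, 29 and 36, against 0.13, 0.21 and 0.14 in R98S clones 11, 13 and 35 (difference 0.19, exact permutation p = 0.4, adjusted over 5 ratios 0.4). For Psmb9 to Psmb6 it was -1.18, -1.29 and -0.52 in WT and -0.79, -0.86 and -0.70 in R98S clones (difference 0.21, exact permutation p = 0.4, adjusted 0.4). For Psmb10 to Psmb7 it was -2.47, -2.27 and -1.92 in WT and -1.80, -2.05 and -1.70 in R98S clones (difference 0.37, exact permutation p = 0.2, adjusted 0.333). In all 3 ratios WT clone 36 was the highest of the WT clones and overlapped the R98S clones, and the groups were not distinguished. With 1 clone left out, the difference was smallest at 0.11 for Psmb8 to Psmb5 and 0.24 for Psmb10 to Psmb7, both without WT clone 28, and at 0.06 for Psmb9 to Psmb6, without WT clone 29. Omitting WT clone 36 gave the largest values of 0.34, 0.52 and 0.45.

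The DNA before the RefSeq starts of these genes is shown because the immunoproteasome and PA28 genes are known targets of interferon and STAT signalling, whereas the constitutive genes are known targets of the factor NRF1. The stretches were read from RefSeq (GRCm38.p6), 5′ to 3′ on the strand of the gene, and were chosen to hold at most 30 bases of annotated exons, which is why those of Psmb8 and Psmb9 are short. The stretch of Psmb8, from 107 to 78 bases before its RefSeq start, was placed around its match. The RefSeq starts of Psmb8 and Psmb9 lie 405 and 434 bases downstream of the starts of their principal GENCODE transcripts, so both stretches are exonic in that annotation, 30 of 30 bases each. Capitals mark matches to TGACNNNGC (the core of an antioxidant response element), CCAAT, TTCNNNGAA (a STAT site) or GAAANNGAA (an interferon response core), on either strand. The last 2 patterns can overlap in the letters GAA.
Psme1, chr14:55578244-55578359, plus strand: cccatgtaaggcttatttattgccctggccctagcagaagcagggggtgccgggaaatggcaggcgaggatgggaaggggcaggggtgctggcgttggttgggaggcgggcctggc
Psme2, chr14:55591102-55591221, minus strand: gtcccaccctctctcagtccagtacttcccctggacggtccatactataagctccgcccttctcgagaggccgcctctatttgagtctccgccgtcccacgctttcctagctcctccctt
Psmb5, chr14:54617996-54618115, minus strand: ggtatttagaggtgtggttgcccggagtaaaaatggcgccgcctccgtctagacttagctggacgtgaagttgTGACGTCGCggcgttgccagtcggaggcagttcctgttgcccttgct
Psmb8, chr17:34198088-34198117, plus strand: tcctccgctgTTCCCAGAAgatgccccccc
Psmb9, chr17:34187331-34187360, minus strand: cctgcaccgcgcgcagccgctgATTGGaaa
Psmb10, chr8:105938445-105938564, minus strand: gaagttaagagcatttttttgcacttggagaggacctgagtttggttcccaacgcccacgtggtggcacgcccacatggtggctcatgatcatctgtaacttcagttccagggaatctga

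Windows from 250 bases before to 50 bases after a RefSeq start were found for 41 of the 49 tested members and for 8129 of the 11550 tested genes. The antioxidant core occurred in 17.1% of the member windows and 15.1% of all windows, CCAAT in 31.7% and 39.0%, the STAT site in 7.32% and 7.09%, and the interferon core in 17.1% and 6.99%. The interferon core was found in 7 members, Pomp, Psmb3, Psmb4, Psmd4, Psmd9, Psme1 and Psmg4, of which Psme1 was the only one of the 5 immunoproteasome and PA28 genes. The Psme1 match lies 11 bases after its RefSeq start, which is 134 bases downstream of the start of its principal transcript. That match is therefore upstream of neither start and lies outside the stretch printed above. Within 100 bases upstream of the start, 2.44% of the member windows and 1.80% of all windows held the interferon core. Psmb8 had the STAT letters shown above 97 bases before its RefSeq start but inside an annotated exon of its principal transcript, and Psmb5 the antioxidant core 47 bases upstream. Psmd2 and Psmg1 held the STAT letters as well. These matches describe letters and not bound sites.

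The base of the 19S particle split into its ATPases and its other subunits. All 6 ATPases, which form the ring that threads substrates into the core, had log2 differences above 0 and 3 were called higher, and none of the 4 non-ATPase subunits was called. Psmc3 had 3867, 3536 and 3631 normalised counts in WT clones 28, 29 and 36, against 4965, 5411 and 5206 in R98S clones 11, 13 and 35 (log2 difference 0.50, SE 0.09, adjusted p = 0.0142). Psmc5 had 2512, 2386 and 2226 in WT and 2982, 3448 and 3233 in R98S clones (0.44, SE 0.10, adjusted p = 0.0291). Neither gene overlapped between the groups. Psmc3 shares 215 exon bases with Slc39a13 on the opposite strand (mean normalised count 279), and what this adds to its count was not tested. Psmc6 had 3111, 3082 and 3066 in WT and 5208, 4413 and 3564 in R98S clones (0.49, SE 0.14, adjusted p = 0.0514). The highest WT clone of Psmc6 lay 1.47% above the lowest while R98S clone 11 was at 1.46 times R98S clone 35, and the adjusted p was 0.141 without WT clone 28, 0.132 without WT clone 29 and 0.133 without R98S clone 11. Psmc4 (0.27, adjusted p = 0.136), Psmc2 (0.27, 0.166) and Psmc1 (0.22, 0.260) did not pass. Without R98S clone 13, Psmc2 and Psmc4 reached adjusted p-values of 0.0494 and 0.0597.

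The large scaffold subunits Psmd1 and Psmd2 were at 0.08 (adjusted p = 0.694) and -0.00 (0.983), and the ubiquitin receptors Psmd4 and Adrm1 at -0.19 (0.227) and 0.05 (0.794). Psmd4 was lower in every R98S clone (3317, 3287 and 2844) than in every WT clone (3588, 3620 and 3578), and 37.3% of all tested genes showed no overlap. Adrm1 had 1219, 1330 and 1127 in WT and 1163, 1401 and 1254 in R98S clones. A copy of its transcript, Gm9774, holds 78.0% of its 50-base stretches, so its count is uncertain.

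In the lid, 3 of 8 subunits were called higher (37.5%, beside 10.7% of all tested genes) and the median log2 difference was 0.21. Psmd6, a scaffold subunit, had the largest difference of the lid, with 2476, 2439 and 2261 normalised counts in WT clones 28, 29 and 36, against 4731, 3658 and 3406 in R98S clones 11, 13 and 35 (0.70, SE 0.14, adjusted p = 0.0154). Psmd13 had 2965, 2947 and 3029 in WT and 4594, 4192 and 4710 in R98S clones (0.59, SE 0.09, adjusted p = 0.00791). Psmd3 had 3720, 3767 and 3244 in WT and 4542, 5177 and 4627 in R98S clones (0.42, SE 0.11, adjusted p = 0.0370). None of the 3 overlapped between the groups, and Psmd3 lost its call without WT clone 28 (adjusted p = 0.107). Psmd13 shares 342 exon bases with Sirt3 on the opposite strand, whose mean normalised count was 223. What this adds to the count of Psmd13 was not tested. The deubiquitinase Psmd14, the catalytic part of the lid, was at 0.22 (adjusted p = 0.291), and its partner Psmd7 at 0.17 (0.373). Without R98S clone 13, Psmd7 reached an adjusted p of 0.0919 and Psmd14 was at 0.09 (0.561), and without R98S clone 35 Psmd7 was at 0.09 (0.653). Psmd12 (0.19, 0.258), Psmd11 (-0.11, 0.569) and Psmd8 (-0.29, 0.176) were not called.

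Of the 4 tested activators 3 were called higher, among them Psme2, which had the highest log2 difference of the tested members. PA28 is a ring of alpha and beta subunits, encoded by Psme1 and Psme2, that opens the core without ATP and is known to accompany the immunoproteasome. Psme2 (chromosome 14, 55587441 to 55591113, minus strand, GRCm38), the beta subunit, had 1145, 1410 and 1280 normalised counts in WT clones 28, 29 and 36, against 2539, 2760 and 2031 in R98S clones 11, 13 and 35. It rose 1.91 times (log2 difference 0.93, SE 0.14, adjusted p = 0.00714). Psme1 (chromosome 14, 55578123 to 55581529, plus strand), the alpha subunit, had 2134, 2330 and 2321 in WT and 3410, 4407 and 3003 in R98S clones, a rise of 1.59 times (0.66, SE 0.15, adjusted p = 0.0244). For both genes the lowest R98S clone was clone 35 and the highest clone 13, and the groups did not overlap. Psme2 shares 59.3% of its 50-base stretches with other genes, Psme2b above all, and Psme1 14.1%, so both may be understated in every clone.

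PA28 was also set against the core within each library. The log2 ratio of Psme1 to the median of the 14 constitutive core subunits was -1.08, -0.63 and -0.83 in WT clones 28, 29 and 36, against -0.18, 0.21 and -0.35 in R98S clones 11, 13 and 35 (difference 0.74, exact permutation p = 0.1, adjusted over 5 ratios 0.25). For Psme2 it was -1.98, -1.35 and -1.69 in WT and -0.61, -0.47 and -0.91 in R98S clones (difference 1.01, exact permutation p = 0.1, adjusted 0.25). The groups did not overlap for either ratio, and 0.1 is the smallest p that 3 against 3 clones allow. These differences exceed those of Psme1 and Psme2 themselves because the median of the core's levels fell on other subunits in R98S than in WT clones. With each core subunit set against its own WT mean, a reference chosen after the data were seen, the median of the 14 was 0.25, 0.25 and 0.15 in R98S clones 11, 13 and 35. Against it the difference was 0.44 for Psme1 and 0.71 for Psme2 (exact permutation p = 0.1 each), again without overlap.

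Psme3, which forms the nuclear activator PA28 gamma, had 5123, 5130 and 4881 in WT and 6247, 6909 and 6212 in R98S clones, with no overlap (0.35, SE 0.10, adjusted p = 0.0428). It was not called without WT clone 28 (adjusted p = 0.143) or WT clone 29 (0.121). Psme4, which encodes the activator PA200, had 4919, 4755 and 4603 in WT and 3797, 5344 and 4231 in R98S clones (-0.11, SE 0.14, adjusted p = 0.618). R98S clone 13 was above and the other R98S clones below all WT clones. The inhibitor Psmf1 (PI31) had 1143, 1118 and 1050 in WT and 688, 1288 and 886 in R98S clones (-0.26, SE 0.21, adjusted p = 0.440). Here too R98S clone 13 stood above the others, and without it the log2 difference was -0.50 with an adjusted p of 0.0556. Without R98S clone 11 it was -0.05 (adjusted p = 0.898).

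Of the 5 genes that assemble the core, Psmg1 alone was called, and none of the 3 chaperones of the base was. Psmg1, which with Psmg2 guides the formation of the alpha ring, had 765, 700 and 748 in WT and 1288, 939 and 1150 in R98S clones, with no overlap (0.60, SE 0.14, adjusted p = 0.0287). Its partner Psmg2 was at 0.08 (0.682), and the members of the other chaperone pair, Psmg3 and Psmg4, were at 0.26 (0.281) and -0.15 (0.544). Pomp, the maturation factor of the core, had 2787, 2746 and 2531 in WT and 2642, 2398 and 2723 in R98S clones (-0.06, SE 0.10, adjusted p = 0.743). The chaperones Psmd5, Psmd9 and Psmd10 lay between -0.08 and -0.02.

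The genes that work beside the proteasome did not move as a block. Of 13 associated proteins 3 were called higher and 3 lower, beside 10.7% and 13.1% of all tested genes. The shuttle factors that carry ubiquitinated substrates were split: Rad23b rose from 7637 ± 327 to 11960 ± 1050 normalised counts (0.64, adjusted p = 0.00873), while Ubqln2 fell (1706 ± 120 to 1160 ± 58.7, -0.56, adjusted p = 0.0155). The deubiquitinase Uchl5, which docks on Adrm1, rose by 0.45 (adjusted p = 0.0423), AI314180 (Ecm29), which clamps core and cap, by 0.34 (0.0843), and the stimulating factor Zfand5 fell (-0.50, 0.0313).

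Nfe2l1 encodes NRF1, the transcription factor that raises proteasome genes when proteasome activity is short. Of the 8 genes of its activation route 1 was called, beside 23.9% of all tested genes. Vcp, the ATPase that extracts NRF1 from the endoplasmic reticulum among many other substrates, rose from 3393 ± 144 to 5010 ± 418 (0.56, adjusted p = 0.0128). Nfe2l1 itself was at 3296 ± 968 in WT and 2250 ± 472 in R98S clones (-0.53, adjusted p = 0.167). None of 6 ubiquitin and ubiquitin-activating genes was called, beside the same 23.9%. Of the inducers of the immunoproteasome, Irf1 (-0.43, adjusted p = 0.311) and Nlrc5 (-1.01, 0.432) did not pass, and Irf8 was not tested at 2.40 ± 0.524 in WT and 12.3 ± 3.03 in R98S clones.

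Psme1 and Psme2 start 12.7 kb apart on chromosome 14, and the genes around them were examined after their values had been seen. Of 17 tested genes within 100 kb of the pair, 9 were called higher and none lower, both PA28 genes included, against 10.7% called higher among all tested genes. Fitm1, a lipid droplet gene that starts 2.74 kb from the start of Psme1, had no read in any WT clone and 59.1, 64.3 and 67.5 normalised counts in R98S clones 11, 13 and 35. Emc9, which lies between Psme1 and Psme2 and encodes a subunit of the membrane protein insertase EMC, had 6.14, 2.15 and 6.01 in WT and 58.2, 40.8 and 28.7 in R98S clones (2.95, adjusted p = 0.00794). Emc9 shares 14 exon bases with Psme1 on the opposite strand, and what this adds to the count of either gene was not tested. Dcaf11 (0.50, adjusted p = 0.0191) and Ipo4 (0.68, 0.0169) were also called higher, whereas Rnf31, which starts next to Psme2, was at 522 ± 51.0 and 523 ± 45.7 (0.00, adjusted p = 0.996), and Irf9 was not called either (-0.05, 0.879).

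**Figure D5:**
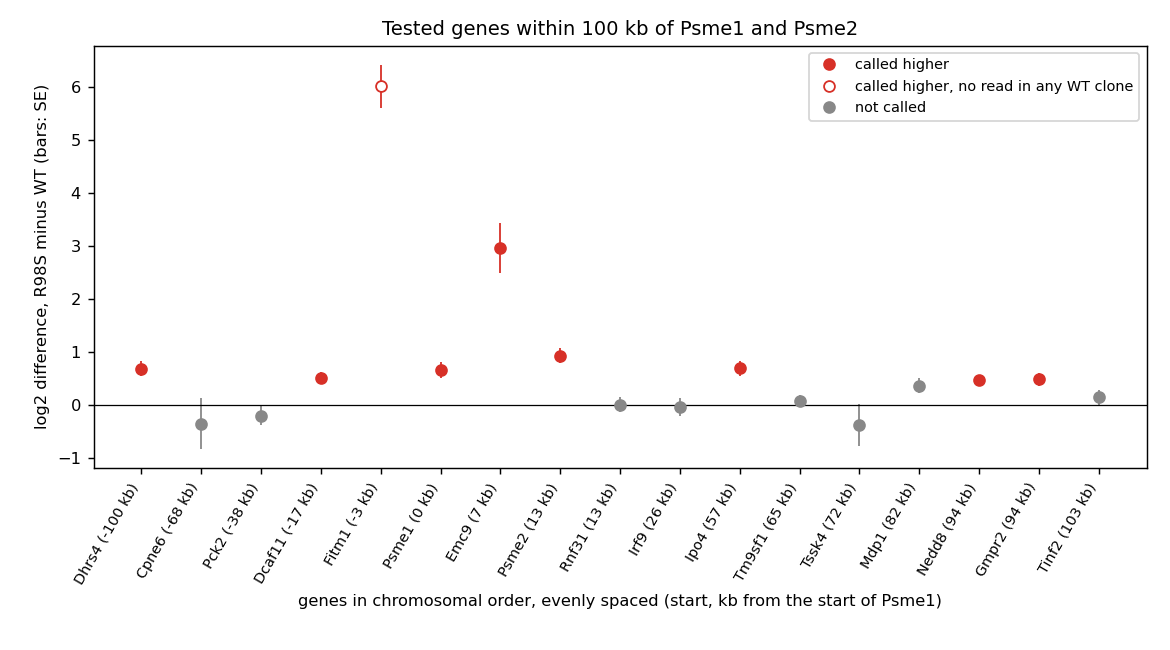
Log2 difference between R98S and WT clones (y axis, limma estimate with SE bars) of the 17 tested genes within 100 kb of Psme1 and Psme2, in chromosomal order with the distance of each start from that of Psme1. The 9 red points were called higher; Fitm1 is drawn open because no WT clone had a read, so that its height depends on the pseudocount.

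Psmb8 and Psmb9 are neighbours in the MHC on chromosome 17, together with Tap1 and Tap2, the peptide transporter that feeds MHC class I. Of 11 tested genes within 100 kb of them, 3 were called higher: Psmb8, Tap2 (1971 ± 168 to 2698 ± 148, 0.46, adjusted p = 0.0281) and H2-Oa (0.70, 0.0219). Tap1 was at 0.21 (adjusted p = 0.309). Around Psma2, all 3 tested genes within 100 kb were called lower: Psma2 itself, Mrpl32 (-0.44, adjusted p = 0.0475) and AW209491 (-0.47, 0.0562). AW209491 lies on the strand of Psma2 and starts inside its annotated span, 17.01 kb from its start. Mrpl32 starts 0.08 kb from Psma2 on the opposite strand. What this closeness adds to the 3 calls was not tested. Psmb8 and Psma2 set these regions and are included in the counts. Among all tested genes 10.7% were called higher and 13.1% lower. For each of the 14 members called higher, the nearest tested gene on either side was taken. Of these 27 distinct neighbours, 6 were called higher (22.2%, beside 10.7% of all tested genes), 1 lower and 20 neither. The 6 include Fitm1, Emc9 and Tap2 from the regions above, so this count repeats part of those above. Fitm1 and Emc9 were tested only because of their levels in the R98S clones. Of 66 neighbours of the members that were not called, 5 were called higher (7.58%) and 6 lower.

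Over the 6 clones, the genes whose log2 levels followed Psme1 most closely were Dclre1c (Pearson's r = 0.997), 4930503E14Rik (0.996) and Nop10 (0.994). Those nearest to Psmb8 were Tbc1d4 (0.998), Dapk2 (0.996) and Btd (0.993), and those nearest to Psma2 were Akr1e1 (0.999), Snx2 (0.998) and Nudt21 (0.998). These values are the highest of 11549 and rest on 6 libraries in which the genotype is shared, so they describe likeness alone.

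Of the 16 called members, 9 kept their call in each of 16 alternatives to the test, scaling, filter or set of clones: Psma2, Psma8, Psmc3, Psmc5, Psmd6, Psmd13, Psme1, Psme2 and Psmg1. The other 7 lost it in at least 1 alternative. Without WT clone 28, 9 members (18.4%) were called, 7 of them higher, and without WT clone 29, 11 (22.4%) were called, 9 of them higher. Calls over all tested genes dropped likewise, from 23.9% to 11.4% and 12.6%.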

How the data were processed

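Messenger RNA was measured in 6 Ba/F3 clones. Each deposited value is a gene's signal after scaling: the authors removed rRNA and tRNA reads with Bowtie2, aligned the rest to mm10 with TopHat, kept primary alignments of mapping quality 10 or more, counted reads on exons and divided them by DESeq2 size factors. SAMtools and HTSeq are named in the submitters' processing notes. The libraries were made with a stranded kit, but annotation and the strand setting of the counting are not given in the sources used here. Reads with near-identical copies are lowered by the quality filter. 100% of the values were whole multiples (within 0.001 reads) of 1 step per library, so reads were recovered for the count tests.

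Groups came from the clone labels. Genes with a mean of at least 10 were tested with limma 3.58.1 (R 4.3.3, trend) on log2(normalised count + 1), two-sided, Benjamini-Hochberg adjusted over 11550 genes, threshold 0.1. This scale understates changes of weakly expressed genes. Ratios were tested by exact permutation over 20 assignments. The scripts were tested on simulated data. Alternatives were pseudocounts of 0.5 and 5, no filter or a minimum of 50, scaling to the same total or upper quartile, no trend, a threshold of 0.05, edgeR 4.0.16, DESeq2 1.42.0 and leaving out each clone. Positions and transcript lengths came from GENCODE M21 (GRCm38), and promoter windows from RefSeq within 1000 bases of the start of the principal transcript.

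The members and lists were chosen with earlier results of these data known. Named with full values were the catalytic, immunoproteasome, activator, inhibitor and tissue-specific genes, Pomp, Adrm1 and every called member. Other members are named with their log2 difference, and other pathway genes as counts with the called ones, except that some genes of the marker and pathway lists, 1 called gene among them, are not reported here. Genes near Psme1, Psmb8 and Psma2 were chosen after their values were seen.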

Additional observations from a re-analysis of the deposited data

How the results depend on the processing

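The 16 called members became between 15 (threshold of 0.05) and 21 (DESeq2) under the alternatives to the test, filter, pseudocount and scaling, with 17 by edgeR. Leaving out each clone in turn gave between 9 and 21 calls, of which between 7 and 18 higher and 2 or 3 lower, while the share called over all tested genes ran from 11.4% to 27.8%. Among the 49 members and 16 alternatives, 730 comparisons kept direction and side of the threshold, 16 lost a call, 22 gained one and 16 changed sign. The changes of sign concerned 6 genes near 0, none of them called. Psmd2 was at 0.0164 with the same total, 0.0363 with the same upper quartile, 0.0112 by edgeR and 0.0064 by DESeq2, and between -0.0555 and 0.0371 with 1 clone left out. Psmd5 was at 0.0155 with the same upper quartile and between -0.08 and 0.0401 with 1 clone left out. Likewise, Adrm1 lay between -0.0176 and 0.1165, Psma3 between -0.0032 and 0.2524, Psmb4 between -0.1823 and 1e-04 and Psmd1 between -0.0258 and 0.1904. Psma7 gained a call in 7 alternatives, Psma6 by DESeq2, and Psmb5, Psmb9 and Psmc4 both by DESeq2 and with upper-quartile scaling. What caused these changes was not tested. With the core subunits centred on their WT means, an alternative added after seeing the data, the PA28 ratios differed by 0.4377 (Psme1) and 0.7094 (Psme2) in place of 0.74 and 1.01. Psmb11 and Psme2b could not be compared at this depth. No paired analysis was possible because the WT and R98S clones carry different numbers.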
